A study of Drosophila melanogaster with 24 samples.

Results

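Head-to-head promoters are those of neighbouring genes transcribed away from each other. They were taken here as pairs of promoter regions on opposite strands with different gene names. The midpoint of the minus-strand region lies 0 to 500 bp below that of the plus-strand region. Each region was kept in its nearest pair only. The rule gave 1389 pairs, whose 2778 regions are 15.4% of the 18097 promoter regions with a gene name, among 45839 regions of transcription start in all. The pairs hold 2739 of the 10709 genes with a promoter region (25.6%). Positions, strands, promoter annotation and gene names chose the members, and the rule used no measured level. A region is listed only where a start was called in some library, so both sides of each pair had been detected.

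Capped short RNA sequencing (csRNA-seq) counts the short capped RNAs of RNA polymerase II that has just begun transcription. A value is therefore read here as a level of initiation at a start site. How far RNA from the mother enters the 0-2 h values was not tested. Drosophila melanogaster embryos aged at 25 C were collected at 0-2, 2-4, 4-6 and 6-8 h from the strain Cas9, which carries tinWT, and from the strains F3 and M6, which both carry tinmDPE, a name that refers to the DPE, a downstream core promoter element, of tin. Each window thus has 1 tinWT and 2 tinmDPE csRNA libraries, 12 in all, from whole embryos that mix all cell types. In such bulk RNA, fewer cells of a type and less RNA per cell cannot be told apart. Since tinWT is 1 strain, genotype and strain cannot be told apart either. No label says whether the libraries came from separate collections of embryos, so p-values measure the spread between these libraries. The csInp libraries of the same strains and windows were not used here.

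A head-to-head pair places 2 promoters back to back around a short stretch of DNA, which both may use. In flies this layout is common among genes that most cells need, and such promoters often hold the DNA replication-related element (DRE), bound by DREF, or the motif 1 element, bound by M1BP. Promoters of developmentally regulated genes more often hold an initiator, a TATA box or GAGA repeats.

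Of the 1389 pairs, 1320 (95%) had both genes annotated on the strand of their region. Over all promoter regions, 71.0% lay on the strand of their gene. In 54 pairs 1 of the genes did not match its strand, and in 15 neither did. The midpoints of the 2 regions of a pair lay 12 to 500 bp apart, with a median of 304.5 bp and quartiles of 177.5 and 388 bp. These distances fell into 2 ranges with few pairs between them: 250 pairs were at 80 to 160 bp, 111 at 160 to 240 bp and 320 at 240 to 320 bp. Between the positions most often called as starts the median was 300 bp. In 29 pairs that distance was outside 0 to 500 bp. The regions were 150 to 506 bp long, and those of 361 pairs overlapped, but tags were counted by strand, so the sides shared none. By arm, 372 pairs lay on 3R, 281 on 2R, 265 on 3L, 243 on 2L, 223 on X and 5 on chromosome 4. On chromosome 4 the pairs held 4.48% of promoter regions, against 14.4% to 17.3% on the other arms. Just inside the limit were Aduk/pasi2 at 500 bp (mean log2 levels 5.90 and 5.37) and PGAP2/Clp at 499 bp (2.36 and 4.73). Just outside it were Ssrp/CG5543 (8.12 and 1.25) and CG11658/mtTFB1 (6.78 and 5.46), both at 500.5 bp. A pair is written with its minus-strand gene first.

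**Figure D1:**
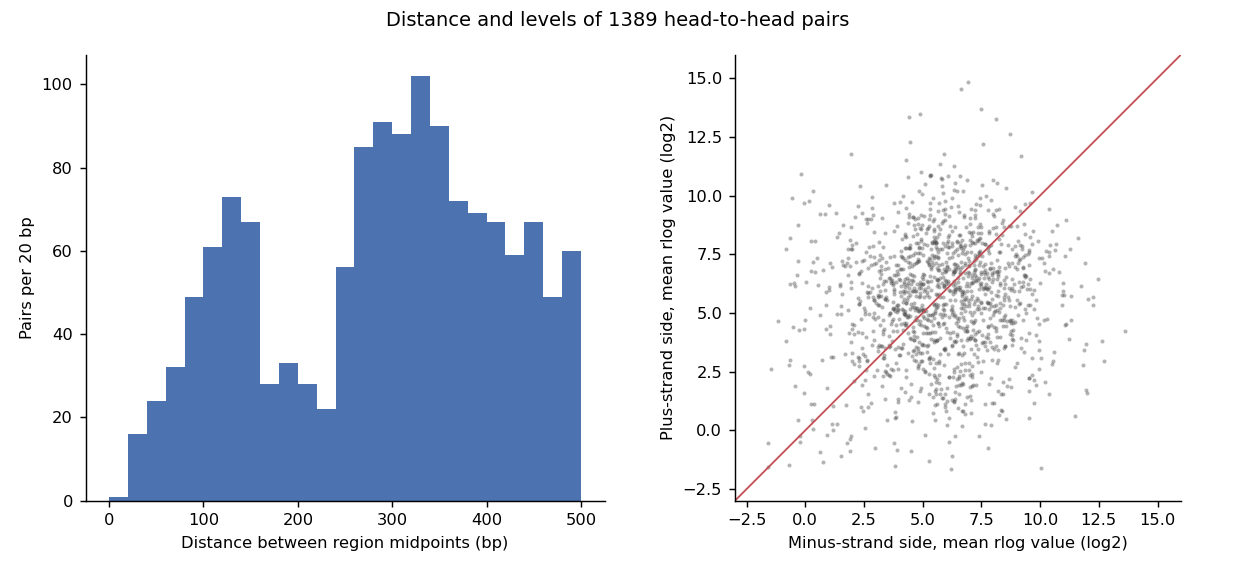
Left, the number of pairs in 20-bp steps of the distance between region midpoints, with fewer pairs at 160 to 240 bp (111) than at 80 to 160 bp (250) or 240 to 320 bp (320). Right, the mean log2 (rlog) level of the minus-strand side against that of the plus-strand side, 1 point a pair over 12 libraries, with the line of equal levels; the points show no common trend (r = 0.084).

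The DNA between the starts differed from that of other promoters in the core motifs it held. Windows ran from 50 bp outside one called start to 50 bp outside the other, with a median of 401 bp. Each was compared with windows of the same length that ran upstream from 50 bp past the called start of a promoter region. A pair window thus spans the starts of both sides, while a compared window is built on a single start. How much of the differences comes from this was not tested. The DRE, TATCGATA, which reads the same on both strands, was in 333 pair windows (24%), against 8.89% for all promoter regions and 7.90% for promoters outside pairs that lie on the strand of their gene. The motif 1 letters GGTCACACT, searched on both strands, were in 272 windows (19.6%), against 6.08% and 5.24%. The E-box CAGCTG, also a palindrome, was in 478 windows (34.4%), against 22.9% and 21.4%. The order was opposite for GAGAGA on either strand, in 141 pair windows (10.2%), against 20.7% and 22%. An initiator match, TCAGT with its A within 5 bp of the called start on the same strand, was at 147 of 2778 sides (5.29%), against 14.1% and 21.4%. A TATA match, TATAAA starting at -33 to -28, was at 34 sides (1.22%), against 3.59% and 5.61%. In fixed windows of 300 bp the shares were 18.9%, 13.2%, 25.6% and 7.20% for the DRE, motif 1, the E-box and GAGAGA, against 7.85%, 5.39%, 19.9% and 18.4% for all promoter regions. The fixed pair windows were centred between the regions, and the others again ran upstream from 50 bp past the start. These are shares of letter matches with no test, and a match is not a shown binding site.

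Of the 379 DRE matches, 361 lay between the 2 called starts, at a median of 45.5 bp from the nearer one (quartiles 22.5 and 69 bp). A pair held both the DRE and motif 1 in 43 cases, and none of the DRE, motif 1, E-box and GAGAGA in 434. TCAGT was on 1 side of 131 pairs, and that side was the higher one in 69 of them. Both sides held it in 8 pairs.

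**Figure D2:**
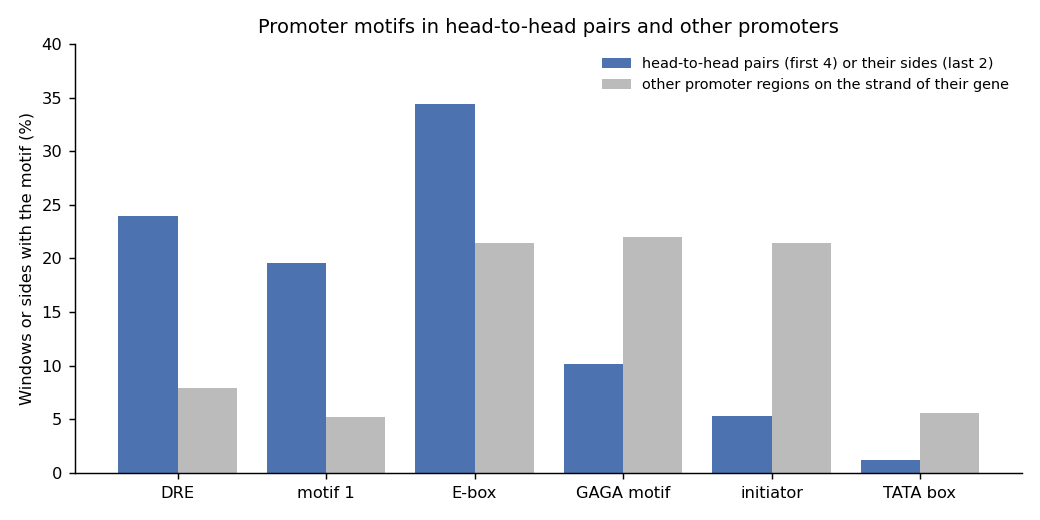
Share of windows (first 4 motifs) or sides (initiator and TATA box) that hold each motif, in head-to-head pairs (blue) and in same-length windows of promoters outside pairs on the strand of their gene (grey). A pair window spans the starts of both sides, and a grey window is built on a single start. The DRE, motif 1 and E-box bars are higher for pairs (24% against 7.90% for the DRE), and the GAGA, initiator and TATA bars are lower (10.2% against 22% for GAGA).

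The following 7 sequences show what such DNA looks like in pairs described further on. Each runs from 40 bp below the minus-strand start to 40 bp above the plus-strand start, on the plus strand of Release 6 (dm6), from the RefSeq genome. Capitals mark a DRE, motif 1, E-box or GAGAGA match. The first has motif 1 and an E-box, the next has a DRE, the third a DRE and an E-box, the fourth motif 1 on the other strand, the fifth an E-box beside the closest starts of the 7, the sixth 2 GAGA runs and the last none of them.
CG14036/His3.3A, 2L:5054954-5055225: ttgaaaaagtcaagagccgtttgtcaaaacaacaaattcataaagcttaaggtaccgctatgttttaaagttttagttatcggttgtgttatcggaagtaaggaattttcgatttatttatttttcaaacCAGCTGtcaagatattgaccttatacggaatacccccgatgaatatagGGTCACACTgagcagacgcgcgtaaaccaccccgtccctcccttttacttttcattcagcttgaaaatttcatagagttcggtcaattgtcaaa
Psf3/flw, X:10385763-10386028: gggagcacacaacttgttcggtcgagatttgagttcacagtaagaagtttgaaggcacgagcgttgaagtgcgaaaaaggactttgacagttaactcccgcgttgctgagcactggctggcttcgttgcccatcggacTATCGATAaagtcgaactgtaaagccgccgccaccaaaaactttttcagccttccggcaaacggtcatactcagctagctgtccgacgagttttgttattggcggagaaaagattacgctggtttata
CG15386/mio, 2L:2217186-2217417: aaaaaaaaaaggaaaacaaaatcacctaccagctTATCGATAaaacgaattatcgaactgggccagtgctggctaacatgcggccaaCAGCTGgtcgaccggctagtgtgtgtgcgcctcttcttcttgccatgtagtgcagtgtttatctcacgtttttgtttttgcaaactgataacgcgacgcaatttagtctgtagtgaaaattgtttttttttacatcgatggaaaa
MED20/Trf, 2L:8072797-8073015: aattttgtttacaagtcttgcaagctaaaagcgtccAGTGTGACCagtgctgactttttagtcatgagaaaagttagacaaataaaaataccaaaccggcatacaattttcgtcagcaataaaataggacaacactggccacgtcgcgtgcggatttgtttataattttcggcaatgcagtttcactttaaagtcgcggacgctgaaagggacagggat
CG4287/CG5516, 3R:15963822-15963951: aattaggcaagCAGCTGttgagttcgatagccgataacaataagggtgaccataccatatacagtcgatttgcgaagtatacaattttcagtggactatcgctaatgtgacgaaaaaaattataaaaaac
E2f1/lncRNA:CR46056, 3R:21638481-21638691: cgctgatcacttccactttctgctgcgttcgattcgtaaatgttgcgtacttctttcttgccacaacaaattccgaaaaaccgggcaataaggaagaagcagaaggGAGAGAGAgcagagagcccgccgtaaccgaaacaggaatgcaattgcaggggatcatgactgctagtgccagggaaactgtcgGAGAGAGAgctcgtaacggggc
zpg/Rexo5, 3L:6605970-6606259: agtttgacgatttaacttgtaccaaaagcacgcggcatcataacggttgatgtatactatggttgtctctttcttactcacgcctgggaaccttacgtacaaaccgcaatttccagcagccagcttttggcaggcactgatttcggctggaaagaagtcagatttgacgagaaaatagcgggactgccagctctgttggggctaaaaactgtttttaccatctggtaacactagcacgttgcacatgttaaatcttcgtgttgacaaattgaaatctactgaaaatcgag

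Head-to-head promoters had higher levels than other promoters and were called in more libraries; these are descriptions with no test. The median of the mean log2 level was 5.80 over pair sides, 4.30 over other promoters on the strand of their gene and 0.72 over all regions. Those other promoters can hold several regions of the same gene, which pair sides rarely do. With only the strongest such region of each of 7348 genes outside pairs, the median was 5.04. The shares of calls below were not taken by gene. A start was in the authors' list of every one of the 12 libraries at 736 sides (26.5%), against 16.1% of those other promoters, and the median side was called in 11 libraries, against 8. Both sides of a pair were called in the same library for 35.6% (Cas9, 4-6 h) to 72.4% (F3, 2-4 h) of pairs, with a median of 63.1%. Only 39 pairs never had both sides called in 1 library, and 97 had both called in all 12.

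The sides of most pairs differed in level. The median difference between sides was 2.27 on the log2 scale, 331 pairs were within 1 and 514 differed by more than 3. The limma test of a mean difference from 0, adjusted by Benjamini-Hochberg, called 1286 pairs (92.6%) at 0.05, where 92.5% of all 5150 neighbouring promoter pairs tested were called, so head-to-head pairs were near the background. The neighbours tested together were these pairs, 1720 head-to-head pairs over 500 to 2000 bp apart and 2041 pairs on the same strand. In 991 pairs (71.3%, 95% exact interval 68.9% to 73.7%, counting error only) the same side was higher in 12 of 12 libraries, the minus side in 514 and the plus side in 477. This share and the counts within 1 and above 3 are given for head-to-head pairs only, and are not read as particular to them. The side means were hardly related over pairs (r = 0.084 over 1389 pairs, which share libraries).

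Pairs whose weaker side was among the highest join genes of basic cell functions. In Dpit47/Adf1, an Hsp90 cochaperone gene beside a transcription factor gene, levels were 9.09 to 10.24 with a median of 9.72 for Dpit47 and 9.71 to 10.44 with a median of 10.24 for Adf1. Adf1 was the higher side in 12 of 12 libraries, although the ranges overlap. Hel25E/Lam pairs an RNA helicase gene of mRNA export with the gene of a nuclear lamin (means 10.39 and 9.42). CG3226/Cdc7 (9.55 and 9.70) holds the gene of a kinase that starts DNA replication, Cdc7.

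At the other end stand pairs with an RNA gene at a low level. In coro/asRNA:CR44169, coro, which encodes an actin-binding coronin, was at 11.43 to 12.69 and its partner at 0.90 to 2.00, a difference of 10.43 ± 0.15 (SE). In aqz/lncRNA:CR43130 the difference was 10.27 ± 0.19. The smallest differences, all 0.00 after rounding, were those of the gene written Sep-02 in the deposited table and Srp72 (8.68 each; Srp72 encodes a subunit of the signal recognition particle), CG15386/mio (5.07 and 5.06) and imd/Dp1 (3.55 and 3.54). Region length bears on such comparisons: with log2 length taken off each value, 91.2% of pairs were called, and the small difference of CG4287/CG5516 turned from 0.42 to -0.05 (adjusted p = 0.671, limma).

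Over the 12 libraries the sides of a pair moved together weakly. The median r within a pair was 0.24 (quartiles -0.16 and 0.57), with 414 pairs above 0.5 and 124 below -0.5. Among pairs with both genes on the strand of their region, medians were 0.24 for head-to-head pairs, 0.12 for the wider head-to-head pairs and 0.16 for pairs on the same strand. With the mean of each window taken off, the median was 0.12, and with the mean of each strain taken off it was 0.26. By distance, medians were 0.22, 0.23, 0.32, 0.28 and 0.088 in successive steps of 100 bp. These are descriptions of 12 points that share strain, window and library, and no difference between them was tested.

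The highest r, 0.99, belonged to epsilonTry/betaTry, a pair of trypsin genes, and it came from differences between strains within a window. The levels of epsilonTry in Cas9, F3 and M6 were 1.68, 5.44 and 8.78 in the 0-2 h window, but 1.67, 6.61 and 1.5 in the 4-6 h window. Those of betaTry were 1.54, 4.76 and 7.94 in the former and 2.04, 6.93 and 1.0 in the latter. The Cas9 libraries were low throughout, F3 and M6 were both above Cas9 at 0-2 h, and at 4-6 h F3 alone stood above the others. Trypsin genes are near copies of each other, so tags may be split or shared between them, and these values are uncertain. In CG4287/CG5516, whose midpoints are 77.5 bp apart (r = 0.96), CG4287 fell by 1.53 ± 0.34 (SE; limma, adjusted p = 0.00478) from 0-2 to 6-8 h and CG5516 fell by 1.64 ± 0.39 (adjusted p = 0.00788). Their levels at 0-2 h were 8.42, 8.17 and 7.50, and 8.26, 7.95 and 6.89, in the same order of strains. At 6-8 h they were 6.87, 6.5 and 6.13, and 6.28, 5.86 and 6.04, all below the 0-2 h values.

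From 0-2 to 6-8 h more head-to-head sides fell than rose. Of 2778 sides, 798 fell (28.7%, background of all regions 7.5%) and 231 rose (8.32%, background 9.88%), by limma with Benjamini-Hochberg adjustment over 45839 regions. Among other promoters on the strand of their gene, 16.68% fell and 16.3% rose. The median change of a side from 0-2 to 6-8 h was -0.64 in Cas9, -0.51 in F3 and -0.27 in M6, against -0.09, -0.09 and -0.17 for those other promoters. Over all regions the median change was -0.08. The calls depend on which strains are kept. Without F3, limma called 0 sides, although 759 were lower and 212 higher at an unadjusted p under 0.05. Without M6 15.7% fell and 2.99% rose, and without Cas9 17.5% fell and 5.98% rose.

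The first step held the most calls. From 0-2 to 2-4 h, 287 sides fell (10.3%, background 2.44%) and 47 rose (1.69%, background 4.22%). The split moved with the scaling: 85.9% of the calls were falls as deposited, 74.6% after quantile normalization and 95.9% with each library centred on its median. The counts rested on single libraries: without the Cas9 2-4 h library 89 sides fell (3.20%) and 10 rose (0.360%), also mostly falls. With any 1 strain left out limma called 0 sides in this step, where 473 to 802 were lower and 100 to 167 higher at an unadjusted p under 0.05. From 2-4 to 4-6 h, 49 sides fell (background 1.72%) and 3 rose (background 0.386%), and without the Cas9 2-4 h library 5.22% were called. From 4-6 to 6-8 h, 2 fell (background 0.229%) and 4 rose (background 0.284%).

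Both sides of a pair changed over the windows in 179 pairs (12.9%), 1 side in 626 and neither in 584, by the F test of all windows. With both genes on the strand of their region, both sides were called in 172 of 1320 head-to-head pairs, 190 of 1463 wider head-to-head pairs and 95 of 617 pairs on the same strand, so the share was near that of neighbours. Without F3 both sides were called in 0 pairs by limma (92 at an unadjusted p under 0.05), without M6 in 0.288% and without Cas9 in 1.73%. Of single sides, 35.4% were called, against a background of 19.9% over all regions and 35.4% over other promoters on the strand of their gene. From 0-2 to 6-8 h both sides fell in 138 pairs, both rose in 23 and they moved in opposite directions in 47, while 1 side changed in 613. In 400 of those 613 the other side's value lay in the same direction, by a median over the 613 of 0.27 against 1.47 for the side that changed. Of all sides, 68.6% were lower at 6-8 than at 0-2 h by any size, whether or not they were called. Among pairs with both genes on their strand, both sides fell in 136 of 1320 head-to-head pairs, 72 of 1463 wider ones and 54 of 617 on the same strand. They moved in opposite directions in 44, 68 and 19 of these. The other side lay in the same direction in 383 of 586, 362 of 653 and 179 of 296 pairs with 1 side called. None of these differences was tested.

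**Figure D3:**
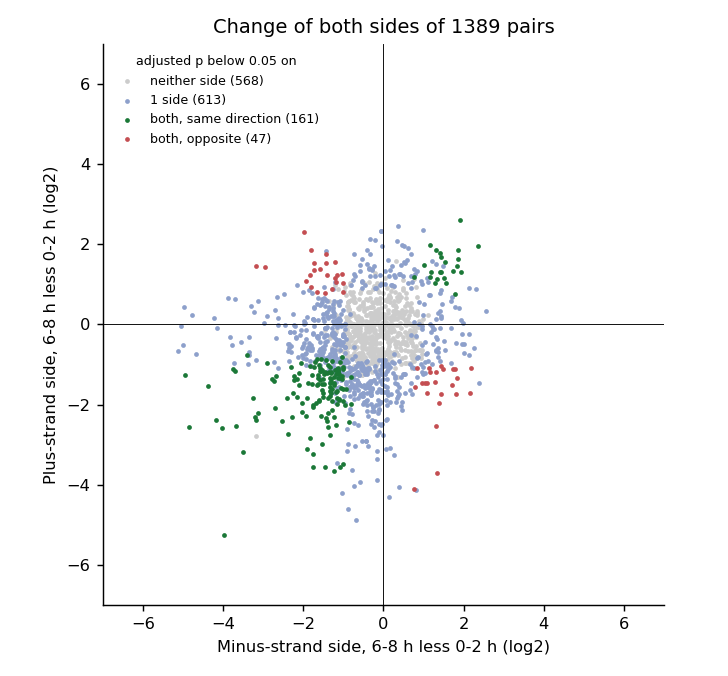
Change from 0-2 to 6-8 h (log2) of the minus-strand side against that of the plus-strand side, 1 point a pair, coloured by which sides passed an adjusted p of 0.05 (limma). The green points, both sides in the same direction, number 161 and lie mostly at the lower left (138), and the 47 red points are pairs that moved in opposite directions.

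The balance of a pair, the minus side less the plus side, changed over the windows in 501 pairs (36.1%, background 37.8% of all neighbouring pairs). The share is near the background, so changing balance was no more frequent here than among neighbours at large. In 342 of the 501, 1 side changed from 0-2 to 6-8 h, and that side fell in 255 and rose in 87. In 47 they moved in opposite directions, in 34 in the same direction and in 78 neither side was called. In 67 of the 501 the higher side was exchanged between 0-2 and 6-8 h in all 3 strains. Without F3 the balance was called in 9.0% of pairs and without M6 in 17.7%.

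In each of the 6 pairs with the largest balance changes 1 side fell, and its partner rose or was not called. zpg encodes the innexin of germ-cell gap junctions, and Rexo5 an RNA exonuclease. zpg was at 7.63, 7.49 and 6.94 in Cas9, F3 and M6 at 0-2 h and at 1.90, 2.74 and 3.05 at 6-8 h. Rexo5 was at 7.16, 6.03 and 5.80, and then at 7.17, 6.53 and 6.03. The zpg ranges are far apart and those of Rexo5 overlap. zpg fell by 4.79 ± 0.41 (limma, adjusted p = 2.18e-06), Rexo5 differed by 0.25 ± 0.34 (adjusted p = 0.740), and the balance fell by 5.04 ± 0.42 (adjusted p = 4.76e-06).

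CG14036/His3.3A gave the same picture beside a replacement histone H3.3 gene. CG14036 was at 8.56, 9.98 and 9.31 at 0-2 h and at 3.29, 4.65 and 4.73 at 6-8 h, and His3.3A at 7.98, 7.63 and 7.43, and then at 7.08, 7.70 and 8.15. The CG14036 values separate fully, and it went from the higher to the lower side in every strain. CG14036 fell by 5.06 ± 0.31 (adjusted p = 2.78e-07), while His3.3A differed by -0.03 ± 0.38 (adjusted p = 0.965). In exu/galla-1, exu, which localizes bicoid mRNA in the oocyte, fell by 3.87 ± 0.36 (adjusted p = 4.58e-06), from 6.37, 6.68 and 6.14 to 2.45, 1.93 and 3.18. galla-1 differed by 0.66 ± 0.34 (adjusted p = 0.216). In T3dh/pgc, pgc, which keeps germ-cell precursors transcriptionally silent, was at 6.04, 3.60 and 5.01 at 0-2 h and at 0.74, 0.69 and 0.84 at 6-8 h. It fell by 4.13 ± 0.55 (adjusted p = 9.16e-05) and T3dh differed by 0.82 ± 0.31 (adjusted p = 0.0865).

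Genes known for their maternal RNA had lower values at 6-8 h outside pairs too. In the strongest region of each gene, mean levels over the 3 strains went from 8.83 at 0-2 h to 4.89 at 6-8 h for bcd, from 7.39 to 2.57 for osk and from 6.84 to 1.79 for BicC, and none of these regions is in a pair. The strongest region of nos, another gene of this kind, is a side of a pair and went from 8.09 to 3.21. The part of maternal RNA in the 0-2 h values was not tested.

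In the other large changes the 2 sides diverged. In DAAM/fs(1)N, fs(1)N, an eggshell gene needed for Torso signalling, fell by 4.11 ± 0.45 (adjusted p = 1.86e-05) from 5.19, 4.53 and 4.47 to 0.71, 0.67 and 0.48. DAAM, which encodes an actin-assembling formin, rose by 0.77 ± 0.24 (adjusted p = 0.0354). In CG42637/SREBP, SREBP, a transcription factor gene of lipid synthesis, fell by 3.71 ± 0.38 (adjusted p = 9.46e-06), from 8.67, 8.30 and 7.82 to 4.33, 4.50 and 4.83. CG42637 rose by 1.33 ± 0.25 (adjusted p = 0.00156), from 9.72, 10.38 and 10.57 to 11.10, 11.63 and 11.92, and their r was -0.83. The values at 0-2 and 6-8 h do not overlap on either side, although CG42637 was the higher side throughout.

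The 3 named pairs of lowest r, of which CG42637/SREBP is one, changed in opposite directions. They were picked by r over the same 12 libraries, so opposite changes follow in part from the choice. In CG9801/CG8223 (r = -0.92) CG9801 rose by 1.72 ± 0.28 (adjusted p = 0.000491) and CG8223 fell by 1.51 ± 0.31 (adjusted p = 0.00298). In MED4/asRNA:CR43470 (r = -0.88) MED4, a Mediator subunit gene, fell by 1.98 ± 0.31 and its partner rose by 2.32 ± 0.37 (adjusted p = 0.000303 and 0.000427). Their levels at 6-8 h were 4.6, 5.14 and 5.32 for MED4 and 5.80, 4.84 and 5.33 for the RNA gene, which overlap, where at 0-2 h MED4 was higher in every strain. Among the highest pairs, CG3226 fell by 1.81 ± 0.37 (adjusted p = 0.00258) and Cdc7 rose by 0.94 ± 0.23 (adjusted p = 0.00955).

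In other pairs both sides moved in the same direction. The first named here was picked for its high r over the same libraries, so a shared direction follows in part from the choice. otu, a deubiquitinase gene of oogenesis, went from 11.65, 12.20 and 12.13 at 0-2 h to 6.96, 7.09 and 7.39 at 6-8 h, and its partner CG33181 from 4.38, 4.72 and 5.33 to 1.56, 2.7 and 2.52. Both fell, by 4.85 ± 0.28 (adjusted p = 2.78e-07) and 2.55 ± 0.37 (adjusted p = 0.00019), without overlap between these windows (r = 0.96). otu fell more, so the balance fell as well, by 2.29 ± 0.42 (adjusted p = 0.00082). E2f1, a transcription factor gene of the cell cycle, and lncRNA:CR46056 rose together by 1.92 ± 0.28 (adjusted p = 0.000188) and 2.61 ± 0.30 (adjusted p = 2.59e-05). E2f1 went from 7.92, 7.68 and 7.33 to 9.36, 9.76 and 9.56, and the RNA gene from 7.17, 7.35 and 6.91 to 9.64, 9.67 and 9.95. Every 6-8 h value was above every 0-2 h value on both sides.

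**Figure D4:**
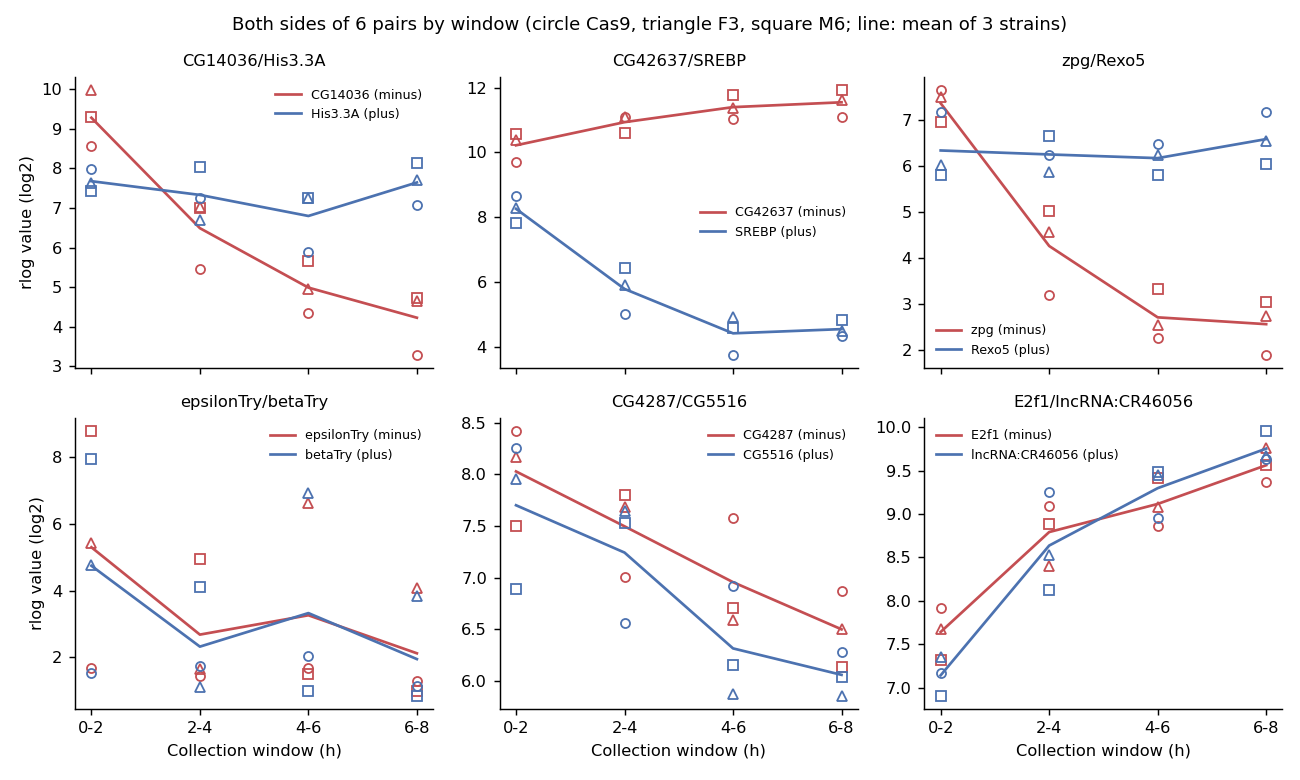
Log2 (rlog) levels of both sides of 6 pairs by window, minus side red and plus side blue, with a symbol for each strain and a line for the mean of 3 strains. The lines cross for CG14036/His3.3A and zpg/Rexo5, part further for CG42637/SREBP and run together for CG4287/CG5516 and E2f1/lncRNA:CR46056, while in epsilonTry/betaTry the strains scatter from 1.54 to 8.78 at 0-2 h.

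Genes of basic cell machinery, grouped by symbol, were often in head-to-head pairs. Of genes with a promoter region, 64.0% of Mediator genes (16 of 25), 63.8% of mitochondrial ribosomal protein genes (44 of 69), 61.5% of TBP-associated factor genes (8 of 13) and 57.6% of aminoacyl-tRNA synthetase genes (19 of 33) were in a pair. The shares were 45.9% for the proteasome (17 of 37), 42.4% for the respiratory chain and ATP synthase (28 of 66), 37.6% for cytoplasmic ribosomal proteins (32 of 85) and 32.6% for translation factors (14 of 43), against 25.6% of all genes. RNA polymerase II subunit genes had 3 of 5 in a pair. Noncoding genes had 12.3% (104 of 848). Of 32 patterning genes, all of transcription factors except the signal gene wg, only run was in a pair, with lncRNA:CR45610. run was at 1.44 to 3.48 and its partner at -0.31 to 1.05. Apart from 1 pair of TBP-associated factors, no pair of these 9 machinery groups held 2 genes of the same group. Partners could be in another of the 9 groups, as in RpL28/eIF1. How many same-group pairs to expect from groups of this size was not worked out.

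**Figure D5:**
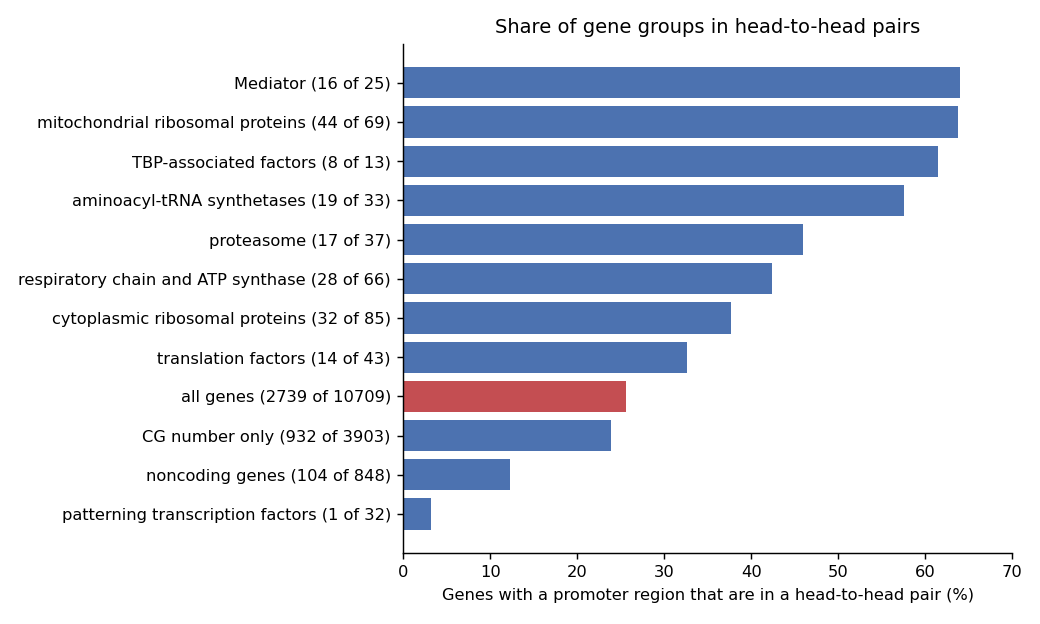
Share of genes with a promoter region that are in a head-to-head pair, by gene group, with all genes in red (25.6%). Mediator, mitochondrial ribosomal protein and TBP-associated factor genes are above 60%, and noncoding and patterning genes are at 12.3% and 3.13%.

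In the ribosomal, respiratory and proteasome groups most called members fell between 0-2 and 6-8 h, inside pairs and outside them. Of 32 cytoplasmic ribosomal protein sides 24 fell and 0 rose (median change -1.25), and of 53 such genes outside pairs 39 fell (median -1.37). Of 44 mitochondrial ribosomal protein sides 20 fell and 0 rose (median -0.96), and 14 of 25 outside fell (median -1.07). Of 29 sides of the respiratory chain and ATP synthase 21 fell and 1 rose (median -1.45), and 26 of 37 outside fell (median -1.24). Of 17 proteasome sides 15 fell (median -1.65), and 11 of 18 outside fell and 1 rose (median -1.09). The median over all pair sides was -0.48. In the remaining groups the counts were nearer the 28.7% of all pair sides that fell. Of translation factor sides 5 of 14 fell and 1 rose (median -0.61), against 14 of 29 and 1 outside pairs (median -1.01). Of tRNA synthetase sides 6 of 19 fell (median -0.45), against 8 of 13 outside (median -1.30). Of Mediator sides 4 of 16 fell, against 2 of 9 outside, and of TBP-associated factor sides 1 of 8 fell. The differences between inside and outside were not tested. The noncoding sides went the other way, with 28 of 105 rising and 7 falling (median 0.50), and of 30 patterning genes outside pairs 19 rose and 1 fell.

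The partners of these genes had lower counts of falls, a difference that was not tested. Of the partners, 15 of 32 fell and 3 rose beside cytoplasmic ribosomal protein genes (median change -0.71), 12 of 44 fell and 3 rose beside mitochondrial ones (-0.50), 14 of 29 fell and 3 rose beside respiratory genes (-0.93) and 5 of 17 fell and 2 rose beside proteasome genes (-0.25). Over all pair sides 28.7% fell and 8.32% rose, so the counts beside mitochondrial ribosomal protein and proteasome genes were near the background. In Mitofilin/mRpL35, where Mitofilin shapes mitochondrial cristae, both fell, by 1.69 ± 0.29 and 1.96 ± 0.28 (adjusted p = 0.00068 and 0.000136). In Cchl/ND-42, a heme lyase gene beside a complex I gene, both fell, by 2.15 ± 0.27 and 1.81 ± 0.32 (adjusted p = 5.97e-05 and 0.000856), and their levels differed by 0.01. In Rpn13/Cp1 the proteasome gene fell by 1.32 ± 0.27 and the cathepsin L gene Cp1 by 1.18 ± 0.30 (adjusted p = 0.00243 and 0.0112).

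In other pairs only the machinery gene was called. RpS20 fell by 1.70 ± 0.26 (adjusted p = 0.00029) beside CG17271, which differed by -0.35 ± 0.28 (adjusted p = 0.473). ND-MNLL, a complex I subunit gene, fell by 2.34 ± 0.33 (adjusted p = 0.000128) beside the Golgi tether gene p115 (-0.20 ± 0.32, adjusted p = 0.803). MED20 fell by 1.42 ± 0.28 (adjusted p = 0.00191) beside Trf, a TBP-related factor gene (0.31 ± 0.25, adjusted p = 0.475). The balance of RpS20, ND-MNLL and MED20 with their partners changed over the windows as well (adjusted p = 0.0191, 0.000736 and 0.00282). In eIF3l/Nrx-IV they moved apart: the translation factor gene fell by 1.17 ± 0.27 (adjusted p = 0.00657) and Nrx-IV, a septate junction gene, rose by 1.22 ± 0.33 (adjusted p = 0.0158).

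By motif, the shares of sides that fell were close to each other for the DRE (27.9% with, 29% without) and motif 1 (30.3% and 28.3%). Pairs with the E-box had 32.4% of sides falling and 6.07% rising, against 26.8% and 9.5% without it. Pairs with GAGAGA had 16.3% of sides rising and 23.4% falling, against 7.41% and 29.3% without it. Sides of pairs with TCAGT on 1 side rose in 14.5% and fell in 22.1%, against 7.64% and 29.5% with none. The median r was 0.26 with a DRE and 0.23 without. None of these differences was tested.

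Between genotypes, 10 of 2778 sides were called (0.360%, background 0.323%), and 341 had an unadjusted p under 0.05, so the share was near the background. Libraries of the same strain count as replicates in this test, 4 of Cas9 against 8 of F3 and M6. With 1 tinWT strain, the genotype p-values cannot show how far strains of that genotype differ. Bap111, a gene of the Brahma chromatin-remodelling complex, was at 8.45, 6.95, 7.51 and 7.40 in Cas9 from the first window to the last. It was at 6.41, 5.78, 4.82 and 5.18 in F3 and at 6.23, 5.94, 5.39 and 4.96 in M6. Every Cas9 value was above every F3 and M6 value. The difference, tinmDPE less tinWT, was -1.99 ± 0.24 (limma, adjusted p = 0.000588), while its partner fh, the frataxin gene, differed by -0.14 (adjusted p = 0.899). Psf3, a gene of the GINS replication complex, differed by 1.81 ± 0.27 (adjusted p = 0.00567), with 2.90, 3.95, 4.10 and 4.59 in Cas9, 4.58, 4.47, 6.77 and 6.79 in F3 and 4.49, 5.69, 6.29 and 6.46 in M6. Within each window the Cas9 value was the lowest, although the ranges over all windows overlap. Its partner flw, a protein phosphatase gene, differed by -0.22 (adjusted p = 0.819).

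Dredd, a caspase gene of the immune response, differed by 1.39 ± 0.20 (adjusted p = 0.00388) and CG4119 by 1.55 ± 0.22 (adjusted p = 0.00388). Like Bap111 and Psf3, both lie on the X. The other 6 were CG14036 (1.25), CG7985 (1.40), CG8389 (1.23) and RpL41 (1.02), higher in tinmDPE, and Ing5 (-1.28) and Ipk2 (-1.19), lower. None of the 10 partners was called by limma, with adjusted p of 0.55 to 0.98. The balance differed between genotypes in 12 pairs (background 1.03%, 222 pairs at an unadjusted p under 0.05). The smallest adjusted p by limma, 0.00157, was that of fh/Bap111 (1.84 ± 0.26), followed by Dredd/su(sable) (1.70 ± 0.26, adjusted p = 0.00284) and Psf3/flw (2.02 ± 0.36, adjusted p = 0.0108). The count depends on the Cas9 2-4 h library: without it more were called, 8.50% of pairs for balance and 1.33% of sides for level. Without F3 or without M6, limma called 0 sides, and 188 and 176 had an unadjusted p under 0.05.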

How the data were processed

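csRNA-seq values of 12 libraries were used. Per the file headers, the authors merged the TSS lists of these libraries by strand with HOMER's mergePeaks. They then counted tags on the same strand with annotatePeaks.pl on dm6 (fragment length 1) and deposited regularized log (rlog) values on the log2 scale. Each merged region also carries a score that the authors deposited, used here only to count calls. The submitters' processing notes list HOMER, STAR 2.7.10a, edgeR and dm6. How starts were called in each library, and at which thresholds, is not given in the sources used here. Libraries held 2632187 to 10553406 tags, per the file headers. The rlog transform shrinks low levels, so differences at weak starts are understated, and tag counts per region were not used here.

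The members, gene groups and tests were chosen with earlier results of these data known. The start of a region was the position called most often among the libraries, and strands of genes came from RefSeq annotation (Release 6, dm6), whose chromosome lengths cover the coordinates in the table. As a check of the columns, regions called in 1 library alone were highest in that library's own column for 12 of 12 libraries.

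limma 3.58.1 in R 4.3.3 (lmFit, eBayes with trend) was fitted to all 45839 regions, and for balance and side differences to all 5150 neighbouring pairs, with Benjamini-Hochberg adjustment over each whole table and a threshold of 0.05. Window tests had strain as a block, since the labels name a strain for each library. Deviations of libraries of the same strain correlated by 0.15 in Cas9, 0.06 in F3 and 0.07 in M6 on average, against -0.05 between strains. Genotype tests had window as covariate and no term for strain. The fits were tested on simulated data, with 200 regions or pairs shifted by 2 on the log2 scale: 188 of 200 were recovered for the window test with 21 false calls among 45839 regions, and 170 of 200 for the balance test with 15 false calls among 5150 pairs. As a share of the calls made, the false calls were above the threshold of 0.05 in both tests. The simulated noise was drawn independently for each library, with no effect of strain. Motifs were searched in Python 3.11.15 with pandas 2.3.3. Named pairs were taken by rule: the highest weaker side, the extremes of balance change, r and side difference, the smallest genotype p, those nearest the distance limit and up to 2 of each gene group with the highest weaker side. Rank rules for r and side difference used pairs with both sides above the median of all regions, and for r also an SD of 0.5 or more. A pair with a gene off its strand was passed over, and 1 pair that the rule names is not reported here. The alternatives were other scalings, filters, variance priors, distance limits, blocks and left-out libraries or windows.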

Additional observations from a re-analysis of the deposited data

How the results depend on the processing

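The shares below are percentages of pairs or of their sides. The side difference (92.6% of pairs) stayed within 1.5 times under every alternative tried, among them scalings, filters and distance limits of 300 and 1000 bp. So did the share with the same side higher in 12 of 12 libraries (71.3%), for which no scaling of libraries was tried. The calling of both sides also stayed within 1.5 times in its only alternative, pairs with both scores at or above the median. The 6-8 against 0-2 h shares also stayed within 1.5 times under every alternative tried except the left-out strains.

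Leaving out 1 strain or the Cas9 2-4 h library in turn moved the shares with both sides changing over the windows to 0 to 18.1. For 6-8 against 0-2 h they moved to 0 to 10.04 for higher and 0 to 34.4 for lower sides. For 2-4 against 0-2 h they moved to 0 to 0.360 and 0 to 3.20, for 4-6 against 2-4 h to 0 to 5.22 and for 6-8 against 4-6 h to 0 to 0. The balance over windows moved to 9.0 to 49.0, the genotype difference of sides to 0 to 1.33 and of the balance to 0.0720 to 8.50. Fewer libraries remain in each such fit. Where limma called 0 sides or pairs in these fits, 63 to 802 had an unadjusted p under 0.05 in each direction tested.

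Without the 0-2 h window the shares were 0.504 for both sides changing, 7.85 for the balance over windows, 0.108 for genotype sides, 0.216 for genotype balance and 0 for 6-8 against 4-6 h. Without 2-4 h they were 7.06 for genotype balance and 0 for 6-8 against 4-6 h. Without 4-6 h they were 4.75 for both sides changing, 0 for 2-4 against 0-2 h in either direction, 0 for genotype sides and 0.216 for genotype balance. Without 6-8 h they were 1.37 for both sides changing, 0 higher and 0.288 lower for 2-4 against 0-2 h, 0.108 for 4-6 against 2-4 h, 17.6 for the balance, 0 for genotype sides and 0 for genotype balance. Where limma called 0 sides without a window, 138 to 778 had an unadjusted p under 0.05. Of other settings, centring each library on its median gave 0.612 higher for 2-4 against 0-2 h, and a variance prior without trend gave 0.360 for genotype balance. With no replicate block for the strain, 6-8 against 4-6 h gave 0.0360, and no other count moved by over 1.5 times. Both sides changing gave 12.1 without that block, against 12.9 with it. A limit of 1000 bp gave 0.406 for 6-8 against 4-6 h. Taking off window means gave a median r of 0.12. Fixed 300-bp windows gave 18.9 for the DRE, 13.2 for motif 1, 25.6 for the E-box and 7.20 for GAGAGA. With row length taken off, the side difference of CG4287/CG5516 reversed to -0.0487 (adjusted p = 0.671, limma). The cause of these shifts was not tested.

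Among the named pairs, 279 alternative values of the balance change and 570 of the change of a side kept their direction and their side of the threshold, while 16 and 95 kept their direction but missed it. For the genotype difference of called sides 79 values were kept and 67 missed the threshold, and for that of the balance 54 and 24. Some alternatives could not differ from the main setting. For sides, the distance limits, the strand match and the mutually nearest pairs reuse the main fit. All 1389 pairs were mutually nearest, so that setting repeats the balance values too. The number of libraries limits precision: 1 strain carries tinWT, and the weakest sides are shrunk most.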

Other observations

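Pairs on the 2R arm and elsewhere also held other genes named by the rules above. imd, the adaptor gene of the Imd immune pathway, rose by 2.56 ± 0.43 from 0-2 to 6-8 h (limma, adjusted p = 0.000571) beside Dp1, which differed by 0.34 ± 0.44 (adjusted p = 0.700). Dredd, a caspase gene of the same pathway, rose by 1.47 ± 0.27 (adjusted p = 0.0013) beside su(sable), which differed by 0.50 ± 0.22 (adjusted p = 0.140). sstn rose by 1.23 ± 0.34 (adjusted p = 0.0190) beside GlyRS, a glycyl-tRNA synthetase gene, which differed by -0.50 ± 0.29 (adjusted p = 0.277). Ho, the heme oxygenase gene, fell by 1.12 ± 0.29 (adjusted p = 0.0118) beside Taf12, which differed by -0.06 ± 0.29 (adjusted p = 0.911). RpII140 fell by 1.01 ± 0.31 (adjusted p = 0.0348) beside 140up, and RpII215, the gene of the largest RNA polymerase II subunit, differed by 0.53 ± 0.26 (adjusted p = 0.188).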
